A study of Mus musculus with 22 samples.

Results

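The Wnt system of the hippocampal CA1 region is described here through its ligands, receptors and secreted antagonists. Members were chosen by gene symbol: every gene row named as a Wnt ligand, a Frizzled receptor, Ror1, Ror2, Lrp5, Lrp6, an R-spondin, a Dickkopf protein (Dkk1 to Dkk4), a secreted Frizzled-related protein (Sfrp), Wif1 or an Axin scaffold. The rule found 48 of the 23361 genes in the expression matrix: 19 Wnt ligands, 10 Frizzled receptors, 4 co-receptors, 4 R-spondins, 4 Dkk genes, 4 Sfrp genes, Wif1 and 2 Axin genes. CA1 microdissections came from 22 female mice of a wild-type cross, Swiss Webster x DBA/C57BL6 F1, with 1 mRNA sequencing library per mouse. AL mice ate without restriction (labelled as the normal diet) and CR mice were calorie-restricted through fewer carbohydrates from young adulthood on. The 4 groups were AL at 5 months (n = 5), CR at 5 months (n = 5), AL at 15 months (n = 6) and CR at 15 months (n = 6).

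Wnt proteins are secreted lipid-modified ligands that bind Frizzled receptors. In the canonical branch, Frizzled and Lrp5 or Lrp6 together restrain the destruction complex built on Axin1 and Axin2, so that beta-catenin accumulates and drives transcription with TCF and LEF factors, whereas Ror1 and Ror2 serve branches that do not use beta-catenin. Sfrp proteins and Wif1 bind Wnt ligands outside the cell, Dkk1, Dkk2 and Dkk4 act on Lrp5 and Lrp6, and R-spondins strengthen signalling by protecting Frizzled receptors from turnover. In the adult hippocampus Wnt signalling is known for roles in synapse assembly, dendrite growth and neurogenesis.

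Levels are given in FPKM, fragments scaled to exon length and to the mapped fragments of the library, as the authors deposited them. Since FPKM is scaled by length, levels of different genes can be set side by side. Tests used log2(FPKM + 0.1) in a limma fit of all 22 libraries and all 16978 genes with a mean of at least 0.1 FPKM, and a gene was called at a Benjamini-Hochberg adjusted p under 0.05 over those genes. A log2 fold change here is the fitted difference of group means on that scale, given with its standard error (SE), and it understates the change of genes near 0.1 FPKM. In total, 44 members were tested, and the adjusted p-values below come from limma.

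Across the tested genes, the median FPKM per library ranged from 8.01 to 8.65, between 18281 and 19175 genes were above 0, and log2 levels correlated at 0.889 to 0.945 between libraries. Read depth per library was not used here and the FPKM values did not give back whole reads, so precision comes from the spread between mice. The levels of regional marker genes differed between libraries. The summed level of 7 CA1 pyramidal neuron marker genes was 238.8 to 526.5 FPKM in AL mice at 5 months and 180.3 to 281.4 FPKM in AL mice at 15 months, and that of 12 neocortex and subiculum marker genes was 95.9 to 146.7 FPKM and 199.4 to 307.7 FPKM. No marker of either list was at 0 in any library. With age in AL mice 5 of the 7 CA1 markers were called lower and 7 of the 12 neocortex and subiculum markers were called higher. The region score, the mean log2 level of the second list minus that of the first, was -3.77 to -2.03 in AL mice at 5 months, -3.72 to -2.65 in CR mice at 5 months, -0.88 to 0.76 in AL mice at 15 months and -3.56 to 0.23 in CR mice at 15 months. In addition, CR replicates 3 and 4 at 5 months had the highest choroid plexus scores (2.53 and 4.71, against at most 1.14 elsewhere), and AL replicate 1 at 15 months had the highest leptomeninges score (3.84). In bulk tissue, fewer cells of a type and less RNA per cell cannot be told apart.

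Most members were present at low to moderate levels. Over the 22 libraries, 4 members had a mean of at least 10 FPKM, 24 lay between 1 and 10, 16 lay between 0.1 and 1, and 4 lay under 0.1 FPKM and were not tested. Dkk3, a divergent Dickkopf family member, was by far the most abundant at 133.5 FPKM, above 95.8% of all tested genes. Wnt7b at 17.2 FPKM, Fzd3 at 10.7 FPKM and Rspo2 at 10.1 FPKM followed.

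Among the ligands, Wnt7b and Wnt7a, a related pair known in the brain for vessel and synapse formation, were the most abundant with means of 17.2 and 8.79 FPKM. Wnt4 at 5.24 FPKM, Wnt5a at 4.14 FPKM, Wnt2 at 3.90 FPKM, Wnt9a at 3.21 FPKM and Wnt10a at 2.68 FPKM formed a middle tier whose mouse-to-mouse ranges overlapped. Wnt2b and Wnt5b were between 1 and 2 FPKM. Wnt10b, Wnt3, Wnt16, Wnt6, Wnt11, Wnt1, Wnt3a and Wnt9b were between 0.105 and 0.639 FPKM. Wnt8a and Wnt8b stayed under 0.1 FPKM on average, and both were listed at 0 in some libraries.

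Among the receptors, 9 of 10 Frizzled genes were between 0.338 and 4.47 FPKM, with Fzd3 alone above 10. Fzd1 and Fzd2 were close to each other at 4.47 and 4.31 FPKM, and Fzd5 was the lowest at 0.338 FPKM. Lrp6 at 8.15 FPKM exceeded Lrp5 at 2.47 FPKM, and the ranges of the 22 libraries did not overlap. Ror1 averaged 1.10 FPKM and Ror2 0.216 FPKM. Of the R-spondins, Rspo2 and Rspo3 were at 10.1 and 8.83 FPKM, Rspo1 was at 1.46 FPKM and Rspo4 was at 0.0256 FPKM.

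Among the antagonists, the classical Lrp inhibitors Dkk1 and Dkk2 were low at 0.106 and 0.219 FPKM, and Dkk4 was listed at 0 in 19 of the 22 libraries. Sfrp1 was at 3.87 FPKM, Sfrp4 at 1.37 FPKM, Sfrp2 at 0.901 FPKM, Sfrp5 at 0.768 FPKM and Wif1 at 0.684 FPKM. The scaffolds Axin1 and Axin2 were at 9.39 and 6.08 FPKM.

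**Figure D1:**
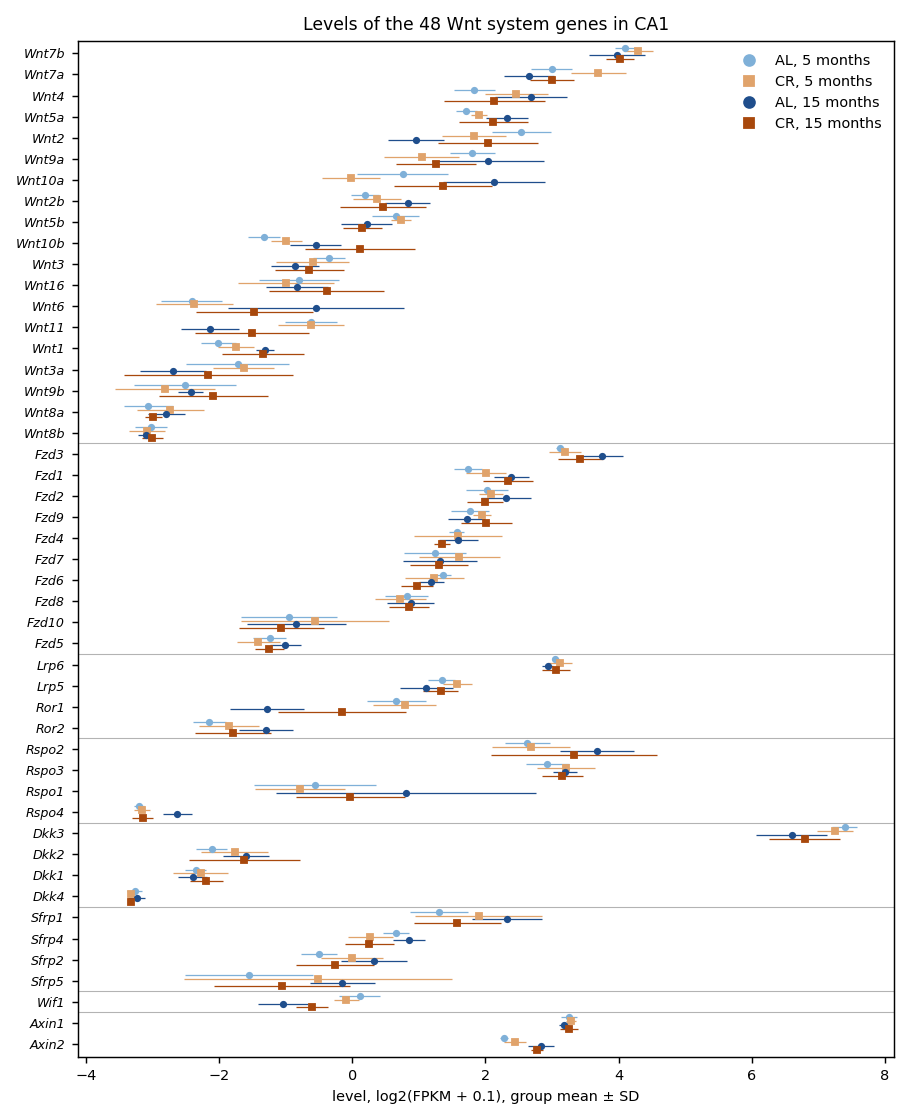
Level of each of the 48 Wnt system genes in CA1, as log2(FPKM + 0.1) on the horizontal axis, ordered by class and by level within a class. Points are group means of 5 or 6 mice and lines are ± 1 SD. Dkk3 stands far to the right of every other member, and the group means of Ror1, Wnt2, Wnt11 and Wif1 lie further left in AL mice at 15 months than at 5 months.

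The first comparison asked which members changed with age in mice fed without restriction. Of the 44 tested members, 14 were called, 9 higher and 5 lower at 15 months than at 5 months. Across all tested genes 20.6% were called, 10.7% higher and 9.97% lower. The noncanonical receptor Ror1, the ligands Wnt2 and Wnt11 and the antagonists Wif1 and Dkk3 fell. The ligands Wnt1, Wnt5a, Wnt6 and Wnt10a, the receptors Fzd1, Fzd3 and Ror2, the antagonist Sfrp2 and the scaffold Axin2 rose. The libraries of the age groups did not overlap for 14 of the tested members, a pattern shown by 14.0% of all tested genes. These 14 were 12 of the called members (the exceptions being Sfrp2 and Wnt10a) together with Wnt10b and Wnt2b, whose adjusted p-values were 0.0673 and 0.0766. The median log2 fold change of the members was 0.16, against -0.00 for all tested genes. The direction of calls over all genes depended on the scaling, with 1809 higher and 1693 lower as deposited, 1441 and 2286 with the libraries shifted to a common median and 1509 and 1845 after quantile normalization. Among the members the counts were 9 and 5, 8 and 5, and 6 and 6.

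Of the 17 tested ligands, 4 were called higher and 2 lower. Wnt2, a canonical ligand, was at 3.74, 4.67, 6.50, 8.32 and 6.39 FPKM in the 5 AL mice at 5 months, and at 1.18 at the lowest, 1.93 at the median and 2.90 at the highest in the 6 AL mice at 15 months. Every older mouse was below every younger one. The group means were 5.93 ± 1.78 and 1.90 ± 0.588 FPKM (SD, n = 5 and 6), and the log2 fold change was -1.59 (SE 0.31, adjusted p = 0.00185).

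Wnt11, a ligand of the branches that do not use beta-catenin, was a low gene with a fall of similar size on the fitted scale. As a log2 ratio of group mean FPKM, without the added 0.1, the fall was larger for Wnt11 (-2.06) than for Wnt2 (-1.64). AL mice at 5 months had 0.425, 0.394, 0.526, 0.859 and 0.654 FPKM, and AL mice at 15 months had 0.0506, 0.123 and 0.289 FPKM at the lowest, the median and the highest. The ranges did not overlap, and the highest older mouse was replicate 1, the library with the highest leptomeninges score. Its log2 fold change was -1.52 (SE 0.34, adjusted p = 0.00446).

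Wnt6 and Wnt10a were both called higher with age, and they are neighbours in the genome. Wnt6 (GRCm38 chromosome 1, 74771892 to 74785322) ends 6193 bases before the start of Wnt10a (74791516 to 74804179), and both are on the plus strand. Wnt6 was at 0.148, 0.145, 0.0177, 0.108 and 0.0579 FPKM in AL mice at 5 months and at 0.152, 0.467 and 3.63 FPKM at the lowest, the median and the highest at 15 months. The lowest older mouse was only just above the highest younger mouse, and the value of 3.63 FPKM came from replicate 1, the library with the highest leptomeninges score. The fit gave a log2 fold change of 1.86 (SE 0.52, adjusted p = 0.0165), and of 1.37 (adjusted p = 0.0262) without that library.

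Wnt10a had the higher mean of the pair in every group. Its level was 3.26, 2.18, 1.09, 1.12 and 1.14 FPKM in AL mice at 5 months and 2.25, 4.81 and 8.55 FPKM at the lowest, the median and the highest at 15 months. The groups overlapped through 1 younger mouse at 3.26 FPKM. This corresponded to a log2 fold change of 1.37 (SE 0.39, adjusted p = 0.0173). Within AL mice at 15 months the pair did not run in the same order. Replicate 0 had the lowest Wnt6 (0.152 FPKM) and the highest Wnt10a (8.55 FPKM). Replicate 1, highest in Wnt6 at 3.63 FPKM, was at 2.28 FPKM for Wnt10a.

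Wnt5a, the ligand best known for binding Ror receptors, was at 3.21, 3.12, 3.37, 2.66 and 3.59 FPKM in AL mice at 5 months. At 15 months its lowest, median and highest values were 3.72, 4.72 and 6.52 FPKM, so that the groups did not overlap. The log2 fold change was 0.61 (SE 0.20, adjusted p = 0.0320).

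Wnt1, the founding member of the family, was a low gene in every AL mouse. It was at 0.176, 0.0862, 0.137, 0.155 and 0.199 FPKM at 5 months and at 0.260, 0.309 and 0.365 FPKM at the lowest, the median and the highest at 15 months, again with no overlap. Its log2 fold change was 0.70 (SE 0.23, adjusted p = 0.0362). Wnt10b lies 11706 bases from Wnt1 on chromosome 15 in the opposite orientation, and its log2 fold change was 0.78 (SE 0.30, adjusted p = 0.0673).

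The other 11 tested ligands had log2 fold changes between -0.97 (Wnt3a) and 0.85 (Wnt4, adjusted p = 0.0646). The most abundant pair moved little. Wnt7b was at 17.1 ± 1.85 FPKM at 5 months and 16.1 ± 4.32 FPKM at 15 months (log2 fold change -0.12, SE 0.16), and Wnt7a was at 8.0 ± 1.63 and 6.39 ± 1.74 FPKM (-0.34, SE 0.21).

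Of the 10 Frizzled receptors, Fzd1 and Fzd3 were called, both higher at 15 months. Fzd3, a receptor known for axon guidance, was at 9.15, 8.06, 8.45, 8.88 and 8.55 FPKM in AL mice at 5 months and at 10.4, 12.9 and 19.1 FPKM at the lowest, the median and the highest at 15 months. The younger mice lay close together and all older mice were above them. The fit gave a log2 fold change of 0.62 (SE 0.16, adjusted p = 0.00944). Fzd1 was at 3.68, 2.54, 3.35, 3.09 and 3.66 FPKM at 5 months and at 3.96, 5.27 and 6.42 FPKM at the lowest, the median and the highest at 15 months (log2 fold change 0.65, SE 0.17, adjusted p = 0.0127). Its ranges also did not overlap. The other 8 Frizzled genes had log2 fold changes between -0.18 (Fzd6) and 0.28 (Fzd2).

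The co-receptors of the Ror family moved in opposite directions. Ror1 was at 1.27, 1.12, 2.56, 1.57 and 1.23 FPKM in AL mice at 5 months and at 0.168, 0.307 and 0.695 FPKM at the lowest, the median and the highest at 15 months. Every older mouse was below every younger mouse. The group means were 1.55 ± 0.586 and 0.341 ± 0.191 FPKM, and the log2 fold change of -1.94 (SE 0.38, adjusted p = 0.00181) was the largest fall among the members.

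Ror2 was lower than Ror1 in young mice and rose. Its values were 0.102, 0.144, 0.0794, 0.137 and 0.179 FPKM at 5 months and 0.216, 0.287 and 0.517 FPKM at the lowest, the median and the highest at 15 months, without overlap. This corresponded to a log2 fold change of 0.86 (SE 0.27, adjusted p = 0.0284). For the canonical co-receptors the log2 fold changes were -0.12 (SE 0.09) for Lrp6 and -0.23 (SE 0.17) for Lrp5, neither of which was called.

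None of the 3 tested R-spondins was called. Rspo2 went from 6.24 ± 1.60 to 13.4 ± 4.73 FPKM (log2 fold change 1.04, SE 0.45, adjusted p = 0.102). Rspo1 was spread widely at 15 months, between 0.305 and 9.85 FPKM, and its log2 fold change of 1.37 had an SE of 0.71.

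Among the antagonists, Wif1 fell with the smallest adjusted p of all members. It was at 0.717, 0.876, 1.31, 1.13 and 0.964 FPKM in AL mice at 5 months and at 0.294, 0.357 and 0.687 FPKM at the lowest, the median and the highest at 15 months. The groups did not overlap, though the highest older mouse, again replicate 1, came within 0.1 FPKM of the lowest younger mouse. The log2 fold change was -1.15 (SE 0.18, adjusted p = 0.000453).

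Dkk3 was at 174.9, 169.2, 201.2, 139.7 and 162.3 FPKM in AL mice at 5 months and at 51.7, 106 and 139.1 FPKM at the lowest, the median and the highest at 15 months. The older maximum was just below the younger minimum. Its log2 fold change was -0.79 (SE 0.25, adjusted p = 0.0279), which by level was the largest change in FPKM of any member (169 ± 22.2 against 102 ± 33.0).

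Of the 4 Sfrp genes, Sfrp2 was called higher. It was at 0.511, 0.554, 0.662, 0.522 and 0.852 FPKM at 5 months and at 0.720, 1.17 and 2.07 FPKM at the lowest, the median and the highest at 15 months, with overlap from 1 younger mouse. The fit gave a log2 fold change of 0.82 (SE 0.28, adjusted p = 0.0435). The log2 fold changes of the other Sfrp genes were 1.02 for Sfrp1 (adjusted p = 0.0612), 1.41 for Sfrp5 (SE 0.69) and 0.20 for Sfrp4.

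Axin2 is a scaffold of the destruction complex and at the same time a widely used transcriptional readout of canonical Wnt signalling. It was at 5.05, 4.58, 4.78, 4.77 and 4.53 FPKM in AL mice at 5 months and at 5.65, 7.36 and 8.12 FPKM at the lowest, the median and the highest at 15 months. The younger mice were tightly grouped and every older mouse was higher. This corresponded to a log2 fold change of 0.56 (SE 0.09, adjusted p = 0.000501). Its partner Axin1 had a log2 fold change of -0.08 (SE 0.07).

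**Figure D2:**
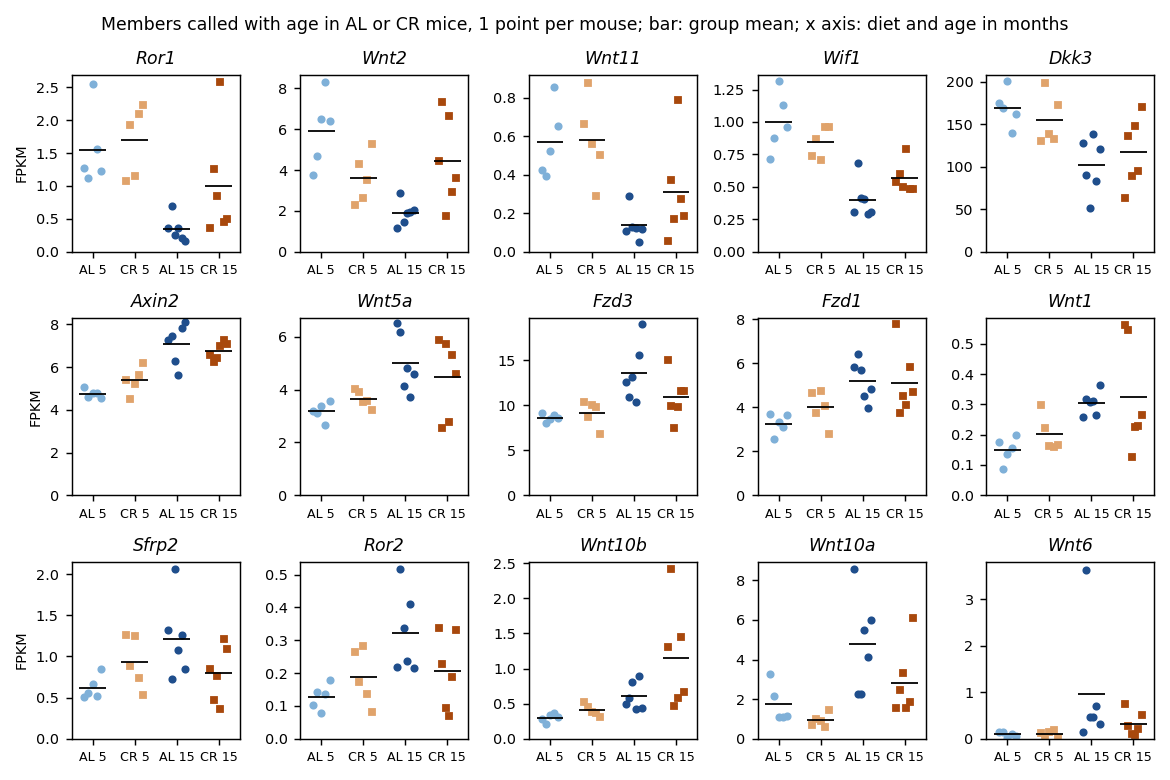
FPKM in each mouse (points) and group means (bars) for the 15 members called with age in AL or CR mice, by diet and age in months, each panel with its own axis from 0. Every AL mouse at 15 months lies below every AL mouse at 5 months for Ror1, Wnt2, Wnt11, Wif1 and Dkk3, and CR mice at 15 months are spread between the levels of both AL groups for Ror1 and Wnt2.

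The 12 called members without overlap have the smallest p of the exact two-sided permutation test, 0.00433, because full separation fixes it. The test, over the same 11 AL libraries, thus adds nothing to that separation. It gave 0.0173 for Wnt10a and 0.0130 for Sfrp2. Wnt2, Wnt6, Wnt11, Fzd1, Fzd3, Ror1, Wif1 and Axin2 (8 members) were called in each of 22 fits that left out 1 library in turn. Without AL replicate 2 at 5 months, only these 8 members were called, and calls over the 16978 tested genes fell from 3502 to 2382. With the 3 libraries of high choroid plexus or leptomeninges scores omitted together, 2773 of the tested genes were called. Among the members 12 were called, 7 higher and 5 lower. Of these, 10 were among the 14, while Wnt1, Wnt5a, Ror2 and Dkk3 were no longer called and Wnt5b and Sfrp1 were called in addition.

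The region score moved with age in AL mice without overlap, so the age of AL mice and this score cannot be told apart by the design. With the region score as a covariate, 0 of the 44 members and 0 of the 16978 tested genes were called with age in AL mice, and 2 members had an unadjusted p under 0.05. The fitted change that remained was not compared between members by a test, and its SE exceeded it for several of them. As a share of the change without the covariate it was 2.07% for Ror1, 3.84% for Sfrp2, 4.54% for Wnt5a, 4.99% for Ror2, 6.82% for Wnt11, 10.2% for Fzd3, 22.2% for Fzd1, 23.8% for Wnt6 and 25.1% for Dkk3. It was 45.3% for Wnt2, 47.9% for Wif1, 64.8% for Wnt10a, 72.0% for Axin2 and 77.4% for Wnt1. For Axin2 the log2 fold change in that fit was 0.40 (SE 0.14), and for Wif1 it was -0.55 (SE 0.25). For Wnt1 it was 0.54 (SE 0.39), for Wnt10a 0.89 (SE 0.65) and for Wnt2 -0.72 (SE 0.47). For Wnt6 it was 0.44 (SE 0.79) and for Ror1 -0.04 (SE 0.36).

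**Figure D3:**
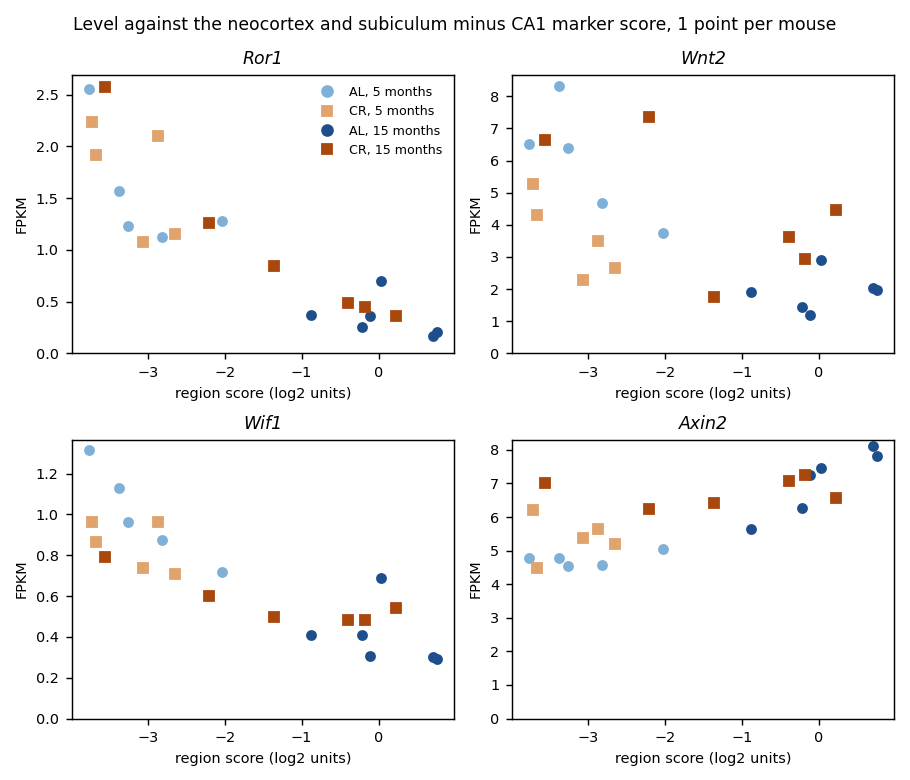
FPKM of Ror1, Wnt2, Wif1 and Axin2 against the region score, the neocortex and subiculum marker score minus the CA1 pyramidal neuron marker score in log2 units, with 1 point per mouse. AL mice at 15 months lie at scores of -0.88 and above and AL mice at 5 months at -2.03 and below, while the CR mice at 15 months reach from -3.56 to 0.23, with the highest Ror1 value, 2.57 FPKM, at the lowest of these scores.

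The promoters of called members are shown to give their sequence context next to these changes. Of the members, 31 had an entry in the RefSeq promoter table (GRCm38.p6), with 34 start sites in all. The 250 bases before each start were searched on both strands for ATCAAAG and TTCAAAG, letters bound by TCF and LEF factors, the nuclear partners of beta-catenin. These letters were found in 3 of the 34 windows, those of Wnt11, Wnt5b and Dkk1, and in 7.48% of 32851 promoter windows of all genes. Wnt11 and Wnt5b have further start sites whose windows hold none of these letters, for Wnt11 the window chr7:98838595-98838844. Printed are the window of Wnt11 that holds the letters, 51 bases before its start, and those of Ror1, Wnt6 and Axin2, which hold none. They are written 5′ to 3′ in the direction of the gene, with the matched letters in capitals. The windows are, for Wnt11, chr7:98834862-98835111 on the plus strand, for Ror1, chr4:100095541-100095790 on the plus strand, for Wnt6, chr1:74771642-74771891 on the plus strand and, for Axin2, chr11:108920099-108920348 on the plus strand, and each ends at the base before the annotated gene.
Wnt11: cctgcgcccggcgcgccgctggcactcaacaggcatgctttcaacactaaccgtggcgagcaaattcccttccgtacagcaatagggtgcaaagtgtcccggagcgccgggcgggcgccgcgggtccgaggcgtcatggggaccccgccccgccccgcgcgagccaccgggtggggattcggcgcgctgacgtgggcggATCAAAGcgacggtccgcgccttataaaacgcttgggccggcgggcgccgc
Ror1: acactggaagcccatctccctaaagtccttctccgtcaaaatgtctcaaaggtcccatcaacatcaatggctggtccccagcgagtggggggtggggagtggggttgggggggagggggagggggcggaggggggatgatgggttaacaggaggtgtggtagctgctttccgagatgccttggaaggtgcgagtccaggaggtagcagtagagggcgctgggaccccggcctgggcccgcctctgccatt
Wnt6: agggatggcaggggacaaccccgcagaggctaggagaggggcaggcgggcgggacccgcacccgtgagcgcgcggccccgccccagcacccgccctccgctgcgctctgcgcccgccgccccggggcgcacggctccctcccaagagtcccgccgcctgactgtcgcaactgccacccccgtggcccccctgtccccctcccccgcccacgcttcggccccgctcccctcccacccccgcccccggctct
Axin2: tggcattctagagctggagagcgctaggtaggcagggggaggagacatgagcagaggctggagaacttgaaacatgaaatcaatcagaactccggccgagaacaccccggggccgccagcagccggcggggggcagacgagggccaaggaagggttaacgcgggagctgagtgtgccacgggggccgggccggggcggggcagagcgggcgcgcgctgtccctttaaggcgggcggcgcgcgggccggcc
The GC content of these windows was 70.8% for Wnt11, 62.4% for Ror1, 79.6% for Wnt6 and 69.2% for Axin2. A match is a description of letters and not of a bound site.

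The second comparison asked the same question in CR mice. Of the 44 tested members, 2 were called, Axin2 and Wnt10b, both higher at 15 months, against 3.36% of all tested genes. The choroid plexus score also separated CR mice by age without overlap (-0.21 to 4.71 at 5 months and -2.58 to -1.43 at 15 months), so the age of CR mice and this score cannot be told apart by the design. With that score as a covariate, 0 members and 0 of the 16978 tested genes were called with age in CR mice by limma, with 6 members and 1298 genes at an unadjusted p under 0.05. In the fit without it, the libraries did not overlap for 2 members, Axin2 and Wnt10a, against 3.26% of all tested genes. An unadjusted p under 0.05 was reached by 8 members and 3049 of the tested genes.

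Axin2 was at 5.38, 4.49, 5.19, 5.65 and 6.21 FPKM in CR mice at 5 months and at 6.23, 6.79 and 7.26 FPKM at the lowest, the median and the highest at 15 months. Every older CR mouse was above every younger one, the nearest pair being 6.21 and 6.23 FPKM. The log2 fold change was 0.33 (SE 0.09, adjusted p = 0.0453).

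Wnt10b, a canonical ligand, was at 0.526, 0.45, 0.382, 0.370 and 0.313 FPKM in CR mice at 5 months and at 0.472, 0.982 and 2.41 FPKM at the lowest, the median and the highest at 15 months. The groups overlapped through 1 older and 1 younger mouse. Its log2 fold change was 1.11 (SE 0.30, adjusted p = 0.0432). Neither call was kept with CR replicates 3 and 4 at 5 months and AL replicate 1 at 15 months left out together, when Axin2 had an adjusted p of 0.0516 and Wnt10b of 0.247.

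Wnt10a was at 0.715, 1.0, 0.878, 0.598 and 1.44 FPKM in CR mice at 5 months and at 1.55, 2.16 and 6.11 FPKM at the lowest, the median and the highest at 15 months. The groups did not overlap, and the log2 fold change of 1.38 (SE 0.39, adjusted p = 0.0548) was close to the 1.37 in AL mice. The members that fell in AL mice had log2 fold changes in CR mice of -0.95 (Ror1, SE 0.38), 0.21 (Wnt2, SE 0.31), -0.89 (Wnt11, SE 0.34), -0.52 (Wif1, SE 0.18) and -0.46 (Dkk3, SE 0.25), and none of these was called. The count of calls rose to 5 without CR replicate 3 at 15 months, the library with the lowest region score of its group. These were Ror1, Wnt11, Wnt7a, Wnt10b and Wnt10a. Calls over all 16978 tested genes rose from 570 to 775 in the same fit.

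The third comparison set CR against AL mice at 15 months, the age at which an effect of long-term diet was sought. It used the same 6 AL libraries at 15 months as the age comparison in AL mice. None of the 44 tested members was called by limma, against 0.742% of all tested genes. None of them was without overlap between the groups, against 0.984% of all tested genes. Rspo4, which was not tested, did not overlap, at 0 to 0.0273 FPKM in CR mice and 0.0344 to 0.0980 FPKM in AL mice. An unadjusted p under 0.05 was reached by 8 members and by 2902 of the tested genes.

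Among the ligands, Wnt2 was at 1.75, 4.04 and 7.35 FPKM at the lowest, the median and the highest in CR mice at 15 months, against 1.18, 1.93 and 2.90 FPKM in AL mice of that age. All but 1 of the CR mice were above the highest AL mouse. The fit gave a log2 fold change of 1.09 (SE 0.30, adjusted p = 0.0855, exact two-sided permutation p = 0.0173).

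Ror1 was at 0.361, 0.669 and 2.57 FPKM in CR mice and at 0.168, 0.307 and 0.695 FPKM in AL mice. The lower 3 CR mice lay within the AL range. This corresponded to a log2 fold change of 1.12 (SE 0.37, adjusted p = 0.135), and the exact permutation p was 0.0303. The CR mouse with the lowest region score of its group, -3.56, held the highest Ror1 level, 2.57 FPKM, and the one with the highest score, 0.23, held the lowest, 0.361 FPKM. The mouse at 2.57 FPKM also had the highest dentate gyrus score of all libraries, 4.46, against 1.12 to 2.59 in AL mice at 15 months. Leaving out 1 library at a time moved the log2 fold change between 0.80 (adjusted p = 0.315, without CR replicate 3) and 1.31 (adjusted p = 0.0471, without CR replicate 0), and the last was the only 1 of 22 such fits in which Ror1 was called. With the region score as a covariate it was 0.33 (adjusted p = 0.778). Without CR replicate 0, 732 of the 16978 tested genes were called, against 126 with all libraries.

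The other ligands named by the study had smaller or more variable differences. With Cuffdiff, a different test, the paper reports Wnt2 as higher and Wnt6 and Wnt10a as lower in older CR mice than in older AL mice. From NanoString counts, a separate assay, it reports Ror1 as higher in older CR mice and as lower with age in AL mice. The fitted differences here had the same directions, but none of these diet differences was called by limma with all libraries. Wnt6 was at 0.0795, 0.244 and 0.751 FPKM in CR mice and at 0.152, 0.467 and 3.63 FPKM in AL mice (log2 fold change -0.92, SE 0.50, adjusted p = 0.355). It was -0.43 without AL replicate 1, the library at 3.63 FPKM, and -0.33 with the region score as a covariate. Wnt10a was at 1.55, 2.16 and 6.11 FPKM in CR mice and at 2.25, 4.81 and 8.55 FPKM in AL mice (-0.76, SE 0.37, adjusted p = 0.297). Wnt5a was at 2.54, 4.96 and 5.88 FPKM in CR mice and at 3.72, 4.72 and 6.52 FPKM in AL mice (-0.20, SE 0.19, adjusted p = 0.603).

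By class, the fitted differences of all 4 Sfrp genes and all 3 tested R-spondins were below 0, also with the libraries shifted to a common median or quantile normalized, while 49.6% of all tested genes were above 0. For the Frizzled genes 9 of 10 were below 0, and 7 and 6 of 10 under these other scalings. Of the 17 tested ligands, 9 were above 0 and 8 below, and of the 4 co-receptors 3 were above. The R-spondin differences were -0.84 (Rspo1, SE 0.68), -0.35 (Rspo2, SE 0.43) and -0.04 (Rspo3, SE 0.17). Genes of a class were measured in the same libraries, so their signs are not independent, and no class was tested as a set. Of the Sfrp genes, Sfrp4 had the smallest p. It was at 0.805, 1.04 and 1.72 FPKM in CR mice and at 1.44, 1.62 and 2.32 FPKM in AL mice, with 1 CR mouse inside the AL range. Its log2 fold change was -0.60 (SE 0.17, adjusted p = 0.0989, exact permutation p = 0.0130).

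Wif1, which binds Wnt ligands outside the cell, was at 0.483, 0.518 and 0.791 FPKM in CR mice at 15 months and at 0.294, 0.357 and 0.687 FPKM in AL mice (log2 fold change 0.44, SE 0.17, adjusted p = 0.203). Axin2 differed by -0.06 (SE 0.09) and Dkk3 by 0.19 (SE 0.23).

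**Figure D4:**
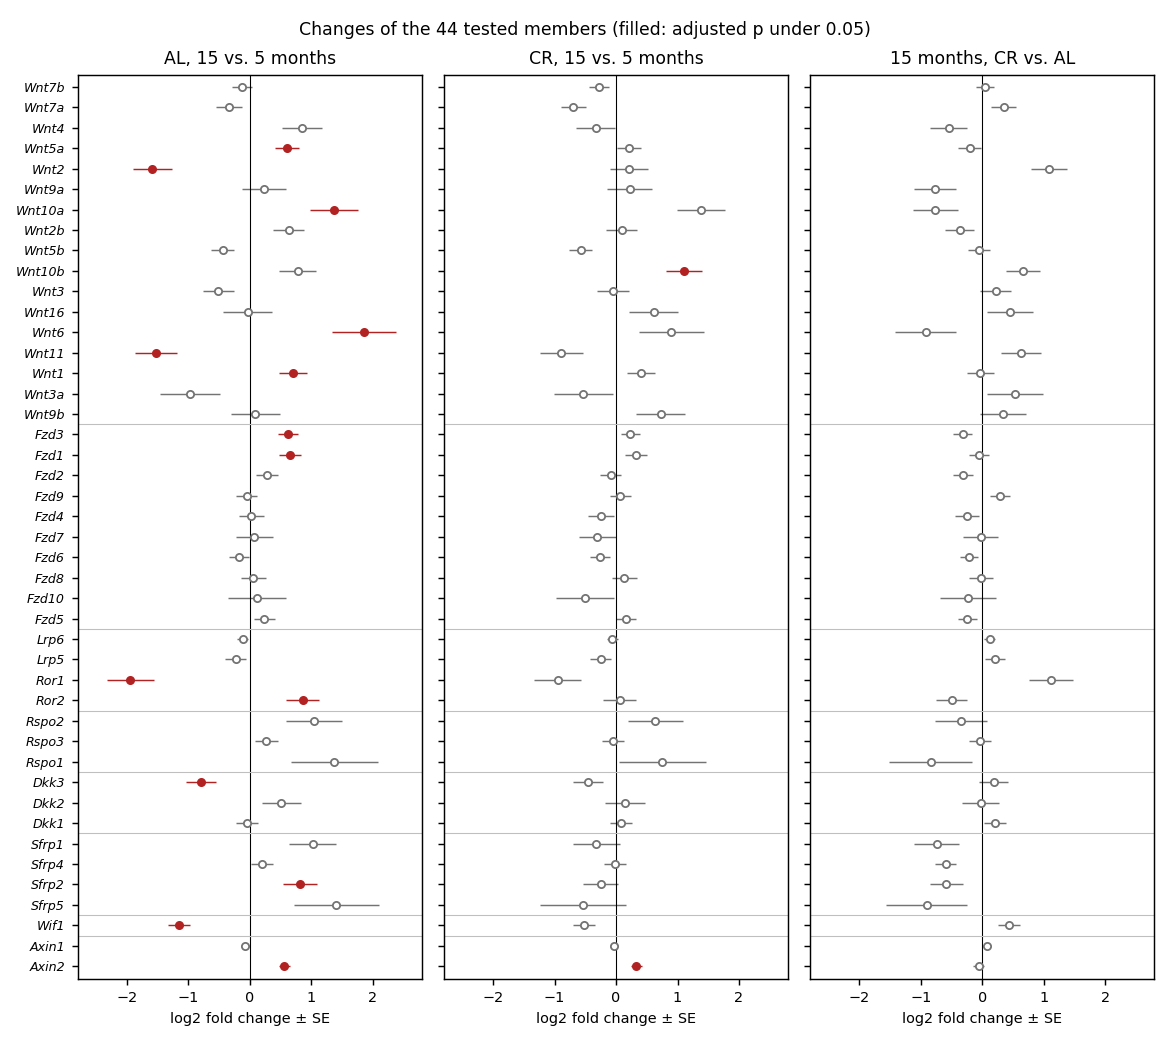
Log2 fold change ± SE of the 44 tested members for age in AL mice, age in CR mice and CR against AL at 15 months, in the same order as the levels. Filled points mark an adjusted p under 0.05; there are 14 in the left panel, 2 in the middle and 0 on the right, and the left and right panels share the AL libraries at 15 months.

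At 5 months, after the shorter period of restriction, 0 of the 44 members were called by limma, against 0% of all tested genes, and an unadjusted p under 0.05 was reached by 2 members and 789 genes. No member was without overlap, against 1.36% of all tested genes. Wnt7a was at 12.4, 17.3, 13.4, 15.2 and 8.09 FPKM in CR mice and at 8.05, 7.50, 8.69, 5.66 and 10.1 FPKM in AL mice. All but 1 of the CR mice were above the highest AL mouse, and the exception was replicate 4. The log2 fold change was 0.70 (SE 0.22, adjusted p = 0.899, exact permutation p = 0.0238).

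Wnt2 was lower on average in CR mice at this age, at 2.29, 4.30, 2.64, 3.5 and 5.27 FPKM against 3.74 to 8.32 FPKM in AL mice. The groups overlapped, and the log2 fold change was -0.71 (SE 0.33, adjusted p = 1.0, exact permutation p = 0.0476).

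CR replicate 4 at 5 months stood apart in several antagonists and receptors, and it was the library with the highest choroid plexus score, 4.71. Sfrp1 was at 11.5 FPKM in it against 2.23 to 3.25 FPKM in the other 4 CR mice of that age, and Sfrp5 was at 5.18 FPKM against 0.114 to 1.62 FPKM. The Norrin and Wnt receptor Fzd4 was at 6.44 FPKM against 1.82 to 2.72 FPKM, and Fzd7 was at 6.23 FPKM against 2.18 to 2.90 FPKM. The part of choroid plexus tissue in these values was not tested, and without CR replicates 3 and 4 at 5 months and AL replicate 1 at 15 months no member was called at 5 months either.

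The difference between the age changes in CR and AL mice was tested as an interaction. By limma 0 of 44 members and 0% of all tested genes were called, and an unadjusted p under 0.05 was reached by 6 members and 1301 genes. The age change of Wnt2 was higher by 1.80 on the log2 scale in CR mice than in AL mice (SE 0.44, unadjusted p = 0.000615, adjusted p = 0.587). Its group means were 5.93 ± 1.78 and 1.90 ± 0.588 FPKM in AL mice and 3.60 ± 1.21 and 4.46 ± 2.17 FPKM in CR mice at 5 and 15 months. The others were Wnt4 at -1.18 (SE 0.45), Sfrp1 at -1.34 (SE 0.54), Sfrp2 at -1.07 (SE 0.40), Ror2 at -0.79 (SE 0.38) and Wif1 at 0.64 (SE 0.25), with adjusted p-values of 0.628 to 0.649. An age change called in AL mice and not in CR mice is therefore not shown to differ between the diets for any member.

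The rest of the pathway was followed through 6 lists with 69 genes, of which 67 were tested. With age in AL mice 10 were called higher and 9 lower, which is read against 10.7% higher and 9.97% lower over all tested genes (20.6% in all). Of the 10 tested genes for ligand secretion and extracellular control, 1 rose and 4 fell. Porcn, the enzyme that adds the lipid to Wnt ligands, fell from 49.7 ± 2.52 to 39.5 ± 3.39 FPKM (log2 fold change -0.33, SE 0.07, adjusted p = 0.00412). Wls, the carrier that brings Wnt ligands to the cell surface, rose from 13.1 ± 1.31 to 18.8 ± 3.5 FPKM (0.51, SE 0.17, adjusted p = 0.0363). The extracellular antagonists Sostdc1, Draxin and Apcdd1 fell.

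Of the 20 genes for the destruction complex and cytoplasmic transducers, 4 rose and 1 fell. Dact2, a modulator of Dishevelled, rose from 12.1 ± 1.11 to 25.5 ± 9.14 FPKM (log2 fold change 1.01, SE 0.17, adjusted p = 0.000707). Dvl3, a Dishevelled adaptor, Apc2 and the kinase Csnk1e rose by 0.35, 0.37 and 0.34 on the log2 scale, and the kinase Csnk1a1 fell by 0.48 (adjusted p = 0.000918). For beta-catenin itself, Ctnnb1, the log2 fold change was -0.19 (SE 0.08, adjusted p = 0.0980).

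Of the 12 nuclear factors, Lef1 and Tle2 rose and Pygo1 and Tle1 fell. Lef1, the DNA-binding partner of beta-catenin, went from 1.31 ± 0.351 to 2.75 ± 1.18 FPKM (0.94, SE 0.33, adjusted p = 0.0469). Of the 12 other receptors and turnover genes, Lgr5, a receptor for R-spondins, rose by 0.74 (SE 0.24, adjusted p = 0.0333). Of the 11 planar cell polarity genes, Celsr3 and Scrib rose and Prickle2 fell.

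Of the 10 tested genes listed as transcriptional targets, Lef1 and Lgr5 rose, and Ccnd1, a cyclin of the cell cycle, and Apcdd1 fell. Their directions were thus mixed, and Axin2, a member counted apart from these lists, rose. In CR mice 1 of the 67 genes was called with age, Sostdc1, which fell by 2.98 (SE 0.57, adjusted p = 0.00490). Its mean in CR mice at 5 months was 11.6 ± 15.2 FPKM, a group that holds both libraries with the highest choroid plexus scores. At 15 months 1 gene was called between CR and AL mice, Dact2, at 15.0 ± 2.57 against 25.5 ± 9.14 FPKM (log2 fold change -0.71, SE 0.16, adjusted p = 0.0471). None of the 67 was called at 5 months or for the interaction by limma, with 5 and 11 genes at an unadjusted p under 0.05. These counts are read against all 16978 tested genes. Of those, 3.36% were called with age in CR mice and 0.742% for diet in the older mice. An unadjusted p under 0.05 was reached by 789 of them at 5 months and by 1301 for the interaction.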

How the data were processed

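Hippocampal CA1 mRNA libraries of 22 mice were analyzed, 1 per mouse, in 4 groups taken from the sample labels. The deposited values are FPKM. The authors estimated them with the Cufflinks package from TopHat alignments to mm10, after Picard had taken out probable PCR duplicates. The library kit does not keep the strand, so reads of overlapping antisense genes cannot be separated. The gene annotation release is not given in the sources used here. No value column was left out. The FPKM values did not give back whole reads. At most 5.15% of low genes lay on 1 common ratio between 2 libraries, within 0.01 on the natural log scale. Depth per library is therefore unknown, and no counting interval is given. The study gives only an average read number per sample. MicroRNA and small nucleolar RNA genes held 40.9% to 64.9% of the summed FPKM of a library.

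Genes with a mean of at least 0.1 FPKM (16978) were fitted as log2(FPKM + 0.1) with limma 3.58.1 in R 4.3.3 (4 group means, eBayes with an intensity trend, two-sided, Benjamini-Hochberg adjustment within each of 5 contrasts: age in AL mice, age in CR mice, CR at 15 months, CR at 5 months, and their interaction). The steps were tested on simulated data. Exact two-sided permutation tests of mean log2 levels were run for single genes, and their smallest p is 0.00433 for 6 against 5 mice, 0.00216 for 6 against 6 and 0.00794 for 5 against 5. Tables used pandas 2.3.3 and numpy 2.4.6, permutation tests scipy 1.17.1 and figures matplotlib 3.10.9, all in Python 3.11.15. Coordinates come from GENCODE M21 on GRCm38, where all 48 members were found, and promoters from RefSeq.

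The members, the 12 marker lists, the 6 pathway lists and the tests were chosen with earlier results of these data known. Every member called in any contrast is named with its values, as are Wnt2, Wnt6, Wnt10a, Wnt5a and Ror1, which the study names; the other members and pathway genes named beside them were chosen after their values were seen. A marker score is the mean log2(FPKM + 0.1) over the list. The alternatives were a pseudocount of 1, no filter, a filter at a mean of 1 FPKM, quantile normalization, a shift of all libraries to 1 median, the replicate number as a block, the region, choroid plexus or leptomeninges score as a covariate, and 22 fits without 1 library each. The omission of 3 libraries together (AL replicate 1 at 15 months, CR replicates 3 and 4 at 5 months) was added after seeing the data.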

Additional observations from a re-analysis of the deposited data

Results flagged for a closer look

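In 176 groups of 5 or 6 mice (44 members in 4 groups), 19 held a mouse far from the others, its gap to the nearest other mouse being larger than Dixon's 95% critical value of the group's range. Chance flags about 1 in 20 such groups only where values are normally distributed. The values here were FPKM without a log, which can be skewed upward, so chance can flag more. In addition, the values of 1 library are not independent of each other. Each of the 19 was the highest value of its group, and the part of skew in this was not tested. By group, 2 were in AL mice at 5 months, 5 in CR mice at 5 months, 4 in AL mice at 15 months and 8 in CR mice at 15 months.

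CR replicate 4 at 5 months, with a choroid plexus score of 4.71, held 4 of them. These were Sfrp1 at 11.5 FPKM (next 3.25), Fzd4 at 6.44 FPKM (next 2.72), Fzd7 at 6.23 FPKM (next 2.90) and Wnt9b at 0.260 FPKM (next 0.0205). The part of choroid plexus tissue in them was not tested.

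AL replicate 1 at 15 months, with a leptomeninges score of 3.84, held the 4 in its group. Wnt6 was at 3.63 FPKM in it (next 0.698), Ror1 at 0.695 FPKM (next 0.365), Wif1 at 0.687 FPKM (next 0.411) and Wnt11 at 0.289 FPKM (next 0.129). The part of meningeal tissue in them was not tested.

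In CR mice at 15 months, replicate 3, which had the lowest region score of that group at -3.56, was at 0.968 FPKM for Wnt3a, 1.92 FPKM for Wnt16 and 10.9 FPKM for Lrp6. That library also had the highest dentate gyrus score of all libraries, 4.46, and the part of dentate tissue in these values was not tested. Replicate 5 was at 6.73 FPKM for Sfrp1, 1.52 FPKM for Wnt5b and 0.818 FPKM for Dkk2. Replicate 0 was at 3.04 FPKM for Wnt2b, and replicate 1 was at 0.987 FPKM for Fzd10. At 5 months, CR replicate 1 was at 0.469 FPKM for Wnt3a, AL replicate 3 was at 1.15 FPKM for Fzd10 and AL replicate 4 was at 3.98 FPKM for Sfrp1.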

How the results depend on the processing

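With age in AL mice (14 members called), 8 were called among genes with a mean of at least 1 FPKM, where 6 of the 14 were no longer tested, 9 with the leptomeninges score as a covariate and 0 with the region score as a covariate; without 1 library the count ran from 8 (without AL replicate 2 at 5 months) to 16 (without CR replicate 0 or 3 at 15 months). With age in CR mice (2 members called), 0 were called with a pseudocount of 1, with no filter, with the filter at 1 FPKM, with the region score, with the choroid plexus score and with the 3 libraries omitted, and 1 with quantile normalization, the cause not being tested; without 1 library the count ran from 0 to 5 (without CR replicate 3 at 15 months). At 15 months 1 member (Rspo4, otherwise not tested) was called between CR and AL mice with no filter, where 106 of 20888 genes were called. Without 1 library 0 to 1 members were called. These were Ror1 without CR replicate 0 at 15 months and Sfrp4 without CR replicate 5 at 15 months. In those fits 732 and 492 of the 16978 tested genes were called, against 126 with all libraries. At 5 months and for the interaction 0 members were called by limma under every alternative. Calls over all tested genes moved as well. With age in AL mice they were 2916 of 13839 with the filter at 1 FPKM and 2822 of 16978 with the leptomeninges score. They were 2382 without AL replicate 2 at 5 months, and 3672 and 3650 without CR replicate 0 or 3 at 15 months. With age in CR mice they were 570 of 16978 in the main fit and 502 with a pseudocount of 1. They were 550 of 20888 with no filter, 304 of 13839 with the filter at 1 FPKM and 590 with quantile normalization. With the region score they were 118, with the choroid plexus score 0 and with the 3 libraries omitted 193. Without CR replicate 3 at 15 months they were 775. Over the named members and contrasts, 202 values were recomputed without leaving out single libraries; 151 kept their direction and their side of the threshold, 49 lost the call, 1 gained it and 1 changed sign (Wnt5a for CR at 15 months, 0.041 with the region score against -0.20, neither called). Leaving out single libraries brought the totals to 664 values, with 551 kept, 110 lost and 2 gained.

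Replicate numbers do not pair the mice: over 31 same-numbered pairs of libraries, deviations from the group means correlated at -0.139 to 0.163, with 2 pairs above 0.1. With the replicate block 14 members were called with age in AL mice, 1 with age in CR mice (Wnt10b) and 2 at 15 months (Wnt2, adjusted p = 0.0466, and Sfrp4). Over all 16978 tested genes the calls in these contrasts were 3754, 617 and 323 with the block. They were 3502, 570 and 126 without it. Since depth per library is unknown, the 6 called members with a mean under 1 FPKM rest on the spread between mice alone.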
